A study of Mus musculus with 6 samples.

Results

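The genes described are those of the protein factors that choose splice sites in the heart: the SR proteins, the heterogeneous nuclear ribonucleoproteins (hnRNPs) and a set of regulators known for splicing in heart and muscle. They were taken from the count table by name and by the protein-coding annotation: *Srsf* followed by a digit, *Hnrnp*, *Rbm20*, *Rbm24*, *Rbfox1* and *Rbfox2*, *Mbnl1* to *Mbnl3*, *Celf1* to *Celf6* and *Ptbp1* to *Ptbp3*. This gave 47 of the 56748 genes in the table, of which 11 encode SR proteins, 20 hnRNPs and 16 regulators. The rule uses no measured value. A total of 41 had enough counts to be tested, made up of 10 SR protein genes, all 20 hnRNP genes and 11 regulators.

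The libraries came from heart tissue, 1 library per mouse, of 3 WT and 3 Pontin cTG littermates. Which part of the heart was taken is not given in the sources used here. In Pontin cTG mice, bred on a C57Bl/6 background, the αMHC promoter drives a human Pontin cDNA with a flag tag in cardiomyocytes. WT littermates lack the transgene. All 6 mice were males aged 10 weeks at the start. Each was given Ang-II by pump over 14 days, at a daily dose of 1.5 mg/kg BW, so both groups were Ang-II-treated and no heart without Ang-II is among these libraries. The number of founder lines behind the Pontin cTG hearts is not given in the sources used here.

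Splicing of a pre-mRNA is steered by proteins that bind short motifs in exons and introns. SR proteins carry RNA recognition motifs and a tail rich in arginine and serine, which is phosphorylated by the SRPK and CLK kinases, and they mostly favour the inclusion of the exon they bind. The hnRNPs package nascent RNA and often repress splice sites. In the heart, RBM20 and RBM24 act on sarcomere and calcium-handling transcripts such as those of titin and the ryanodine receptor, and the RBFOX, MBNL and CELF families set the switch between foetal and adult isoforms. Many SR protein genes control their own dose through an alternative exon or a retained intron that sends the transcript to nonsense-mediated decay. The counts used here are per gene and do not show which exons were joined.

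Across the libraries, total counts ran from 12436822 to 13194038 in WT and from 14584102 to 16888124 in Pontin cTG hearts, and mitochondrial transcripts took 23.8% to 26.7% of them. All 8 cardiomyocyte markers were present, with summed normalised counts of 849237 to 949469 in the 6 libraries. The neuronal markers *Snap25* and *Syt1* were at 0 in every library. Pontin cTG replicate 2 stood apart on the first principal component (51.0% of the variance), at 46.9, with WT replicate 2 at 13.2 and the other 4 libraries between -19.8 and -11.8. The published methods mention an outlier left out after such an analysis but not which library or experiment it came from, so whether it bears on these libraries is not given in the sources used here. All 6 libraries were analysed. Results for the splicing factors are given with and without the libraries numbered 2. Where 3 values are given for a genotype, they stand in the order of its replicates 1, 2 and 3. *Ruvbl1*, the mouse gene of Pontin, had 216, 221 and 217 normalised counts in WT and 249.9, 250.02 and 239.95 in Pontin cTG hearts. Every Pontin cTG heart thus lay above every WT heart, as in 4.7% of all genes tested. The log2 fold change of *Ruvbl1* was 0.18 (SE 0.12, adjusted p = 0.999, edgeR's quasi-likelihood test). Reads of the human transgene need not align to the mouse gene, and any that do cannot be told from endogenous reads. In whole tissue, fewer cells of a type and less RNA per cell cannot be told apart.

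A normalised count is the deposited count after scaling to a common TMM library size, and it compares 1 gene between hearts. To compare genes with each other they were divided by the gene length in the table, in kilobases. On that per-kilobase scale the splicing factors were abundant, with a median of 177 over the 41 genes beside 49.2 over all 13888 genes tested. The highest level belonged to *Hnrnpa2b1*, the gene of a core hnRNP and RNA-transport protein, at 859 ± 71.7 (SD, n = 3) in WT and 909 ± 62.5 in Pontin cTG hearts. The muscle regulator *Rbm24* was next at 677 ± 54.0 and 669 ± 110. *Hnrnpab* and *Hnrnpa1* followed among the hnRNPs. The order among *Hnrnpab*, *Hnrnpa1* and *Hnrnpa0* did not exceed their spread, since the per-kilobase values of *Hnrnpa1* alone ran from 421 to 593.

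*Rbm20*, whose loss causes dilated cardiomyopathy through titin splicing, had a per-kilobase level of 413 ± 11.4 in WT and 374 ± 42.5 in Pontin cTG hearts. This placed it between the hnRNP genes *Hnrnpk* and *Hnrnpc*. *Mbnl2*, of the muscleblind family that is sequestered in myotonic dystrophy, was the third regulator in this order, with WT per-kilobase values of 250 to 267 and values of 259, 149 and 250 in Pontin cTG hearts. Among SR protein genes the order was led by *Srsf5*, *Srsf2* and *Srsf6*, and the ranges of the 3 overlapped. The *Srsf5* level ran from 319 to 596 in WT and from 262 to 778 in Pontin cTG hearts, the widest range of any SR protein gene relative to its mean. The lowest per-kilobase levels among the tested genes were those of *Ptbp2*, the neuronal form of polypyrimidine tract-binding protein, and *Hnrnpr*. Their means over the 6 libraries were 26.5 and 28.8. The gene length of *Hnrnpr*, with every annotated exon included, is 22199 bases, and its place in this order depends on that length. In normalised counts *Hnrnpr* (WT mean 645) lay above *Srsf4* (WT mean 154), which ranked higher per kilobase.

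**Figure D1:**
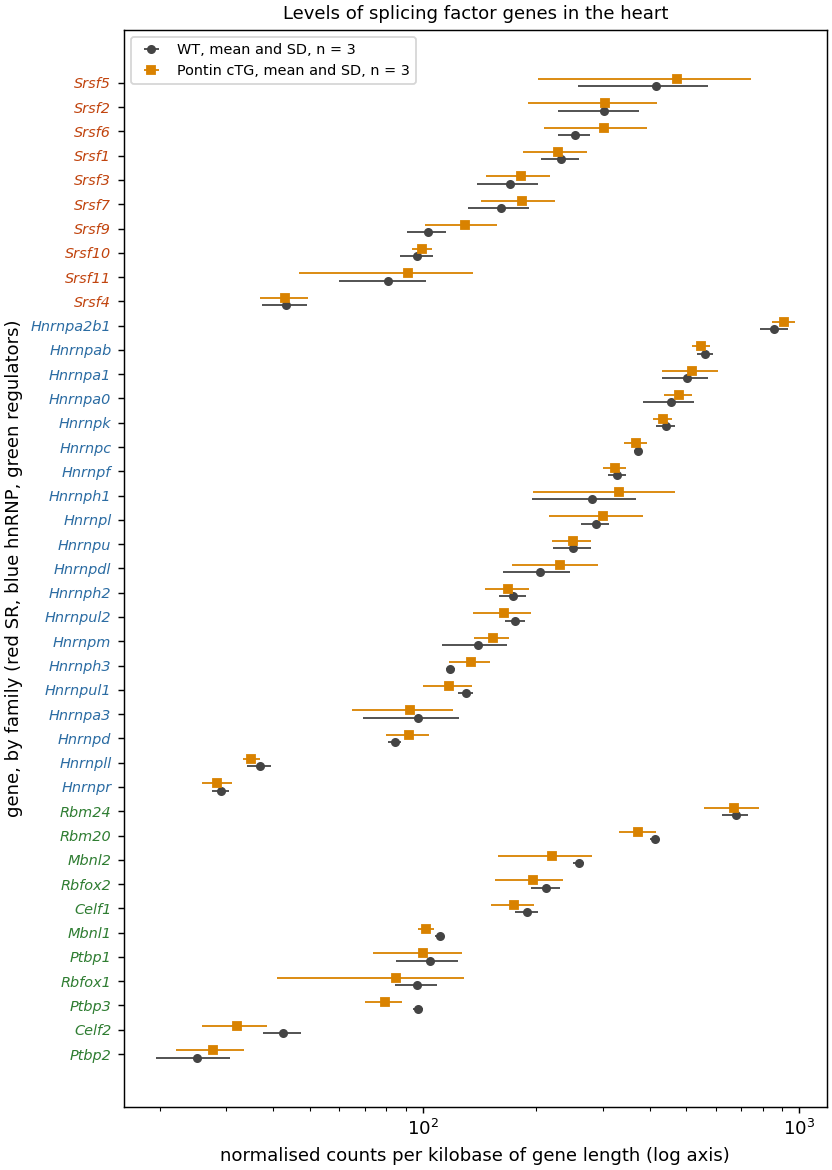
Level of each of the 41 tested genes as normalised counts per kilobase of gene length, on a log axis, as mean and SD of 3 hearts per genotype (dark circles WT, orange squares Pontin cTG). *Hnrnpa2b1* and *Rbm24* have the highest means, the bars of the genotypes overlap for most genes, and the widest bars belong to *Srsf5*, *Srsf11*, *Hnrnph1* and *Rbfox1* in Pontin cTG hearts.

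A total of 6 genes lay below the filter on low counts. *Celf6* had 0 counts in all 6 libraries, which at this depth does not show that the gene is silent. Over the 6 libraries together, *Srsf12* had 5 counts, *Celf5* 12, *Celf3* 18, *Celf4* 27 and *Mbnl3* 43. *Celf3*, *Celf4* and *Celf5* are known mainly from brain.

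Whether the genotype altered the levels of splicing factors was asked with the fit over all 13888 genes. No splicing factor gene was called at an adjusted p under 0.05 by edgeR's quasi-likelihood test, where 0 of all genes (0%) were called, and DESeq2 called none of them either. At an unadjusted p under 0.05, 2 of the 41 genes passed in edgeR, beside 2.05% of all genes tested. None of the 41 was among the genes higher in Pontin cTG hearts at that limit (1.02% of all genes) and both were among those lower (1.03%). In both of these genes every Pontin cTG heart lay under every WT heart, a pattern that 3.63% of all genes showed, while 4.7% of all genes showed the opposite pattern and none of the 41 did. With so few genes past the limit, these counts are descriptions of single genes and not of the group.

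The 2 genes were *Celf2* and *Ptbp3*. *Celf2* (chr2:6539694-7509563, minus strand, GRCm38) encodes a CELF family protein that binds GU-rich motifs and has been tied to cardiac isoform switching after birth. *Celf2* had 1057, 1242 and 997 normalised counts in WT and 993, 665 and 840 in Pontin cTG hearts. WT replicate 3 and Pontin cTG replicate 1 were nearly level, so the groups were only just apart, and the lowest value was that of Pontin cTG replicate 2. The log2 fold change was -0.40 (SE 0.17, p = 0.0443, adjusted p = 0.999, edgeR), and the exact two-sided permutation test gave p = 0.1, the smallest that 3 hearts against 3 allow. It was -0.26 without Pontin cTG replicate 2 (unadjusted p = 0.0695) and -0.16 without both replicates 2 (unadjusted p = 0.187).

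*Ptbp3* (chr4:59471868-59549364, minus strand, GRCm38) encodes the paralogue of polypyrimidine tract-binding protein that is best known from blood cells. Its normalised counts were 731, 745 and 700 in WT and 596, 658 and 523 in Pontin cTG hearts. The WT values lay close together (SD 23.1), and the highest Pontin cTG value, in replicate 2, was below the lowest WT value. *Ptbp3* had a log2 fold change of -0.29 (SE 0.13, p = 0.0496, adjusted p = 0.999, edgeR), with the same smallest permutation p of 0.1. It was -0.37 without Pontin cTG replicate 2 (unadjusted p = 0.00708, adjusted p = 0.889, edgeR) and -0.35 without both replicates 2 (unadjusted p = 0.0106, adjusted p = 0.9996, edgeR). Unlike for *Celf2*, the value thus did not shrink when these libraries were left out. It did shrink, to -0.21, without Pontin cTG replicate 3, where 0 splicing factor genes had an unadjusted p under 0.05 (edgeR). *Ptbp1*, the broadly expressed repressor of muscle and neuronal exons, had a log2 fold change of -0.06 (SE 0.21) and *Ptbp2* one of 0.14 (SE 0.20).

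By family, the median log2 fold change was 0.14 over the SR protein genes (8 of 10 above 0), -0.01 over the hnRNP genes (9 of 20 above 0) and -0.12 over the regulators (1 of 11 above 0), beside 0.0013 over all genes tested (6976 of 13888 above 0). These medians depended on the libraries numbered 2. For the SR proteins the median became -0.06 without Pontin cTG replicate 2, with 2 of 10 genes above 0, and 0.29 without WT replicate 2, with 9 of 10 above 0. With both left out it was 0.02, with 5 of 10 above 0. The median of the regulators was -0.04 without Pontin cTG replicate 2 and -0.02 without both, with 4 of 11 genes above 0. The hnRNP median was -0.0028 without Pontin cTG replicate 2 and 0.04 without both, and it was 0.02 when libraries were scaled by size alone.

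**Figure D2:**
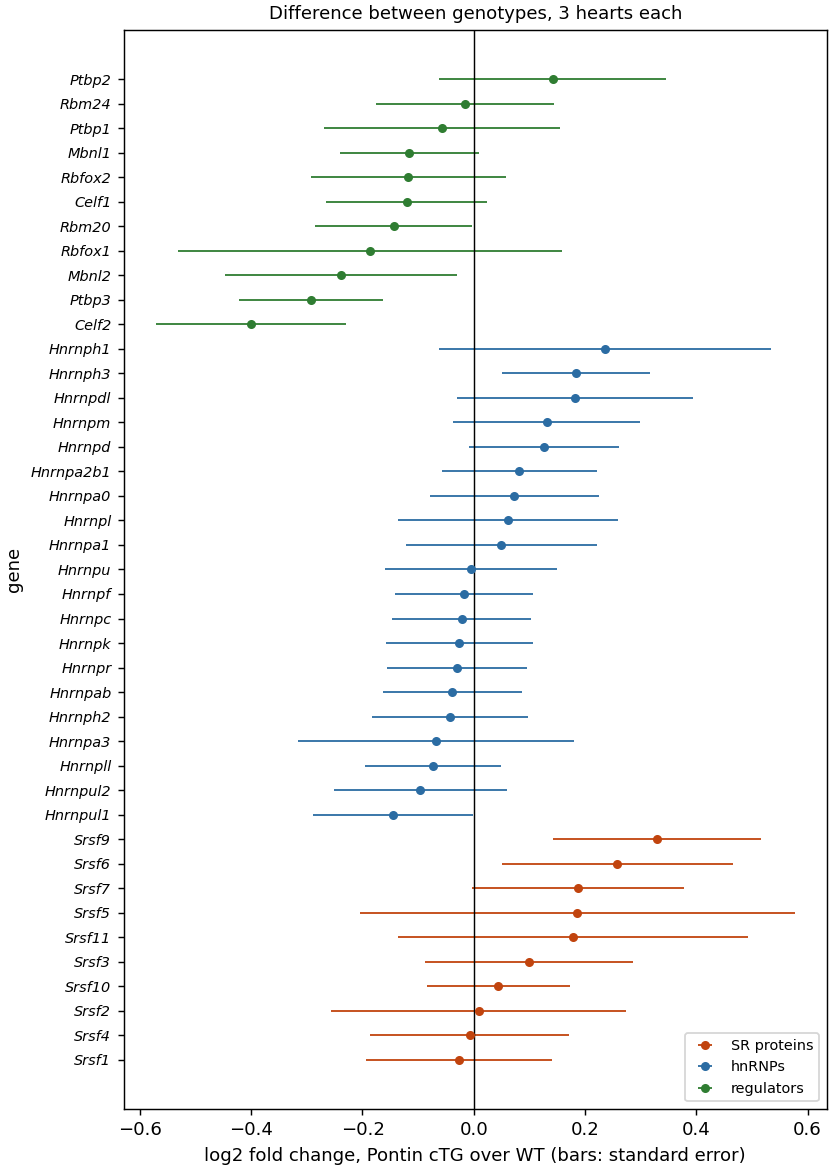
Log2 fold change of each tested gene, Pontin cTG over WT with 3 hearts each, with its standard error as a bar, for regulators (green), hnRNPs (blue) and SR proteins (red). All regulators except *Ptbp2* lie below 0, *Celf2* and *Ptbp3* lie farthest to the left, *Srsf9* lies farthest to the right at 0.33, and the bars of *Srsf5*, *Srsf11*, *Hnrnph1* and *Rbfox1* are among the longest.

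Among the regulators, *Rbm20* (chr19:53677306-53867080, plus strand, GRCm38) had 2883, 2729 and 2797 normalised counts in WT and 2662, 2207 and 2742 in Pontin cTG hearts. The groups overlapped through Pontin cTG replicate 3 and WT replicate 2. *Rbm20* had a log2 fold change of -0.14 (SE 0.14, adjusted p = 0.999, edgeR), and of -0.05 without Pontin cTG replicate 2. *Rbm24* had 2380, 2167 and 2543 normalised counts in WT and 2351, 1945 and 2714 in Pontin cTG hearts. Its log2 fold change was -0.02 (SE 0.16), and replicate 2 was the lowest heart of each genotype.

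*Mbnl2* (chr14:120275669-120431697, plus strand, GRCm38) had 3132, 3199 and 2996 normalised counts in WT and 3110, 1791 and 3002 in Pontin cTG hearts. Only Pontin cTG replicate 2 lay outside the WT range, and the log2 fold change moved from -0.24 (SE 0.21) to -0.02 (SE 0.10) without it. *Mbnl1*, the founding muscleblind gene, had a lower per-kilobase level than *Mbnl2*, with 2074, 2131 and 2013 normalised counts in WT and 1839, 1884 and 2015 in Pontin cTG hearts. Its log2 fold change was -0.12 (SE 0.12).

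*Rbfox1* (chr16:5885355-7411526, plus strand, GRCm38), the muscle and neuron member of the RBFOX family, was low in the same heart. Its normalised counts were 383, 407 and 486 in WT and 393, 171 and 557 in Pontin cTG hearts. Pontin cTG hearts thus held both the lowest and the highest value, and the log2 fold change of -0.19 (SE 0.35) became 0.16 (SE 0.16) without Pontin cTG replicate 2. *Rbfox2*, the broadly expressed member, had 1895, 1585 and 1709 normalised counts in WT and 1714, 1224 and 1845 in Pontin cTG hearts, with a log2 fold change of -0.12 (SE 0.18). *Celf1*, which favours foetal isoforms when it is raised in myotonic dystrophy, had a log2 fold change of -0.12 (SE 0.14).

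Among the SR protein genes, *Srsf9* had the smallest p, with 152, 192 and 168 normalised counts in WT and 179, 267 and 197 in Pontin cTG hearts. WT replicate 2 lay between Pontin cTG replicates 1 and 3, so the groups overlapped. *Srsf9* had a log2 fold change of 0.33 (SE 0.19, adjusted p = 0.999, edgeR), and of 0.14 without Pontin cTG replicate 2. *Srsf6* had a log2 fold change of 0.26 (SE 0.21), which was -0.02 without that heart. *Srsf1*, the prototype of the family and needed for postnatal splicing of *Camk2d*, had 1273, 1502 and 1215 normalised counts in WT and 1186, 1592 and 1138 in Pontin cTG hearts. Replicate 2 was highest in both genotypes, and *Srsf1* had a log2 fold change of -0.03 (SE 0.17). *Srsf3* had a log2 fold change of 0.10 (SE 0.19) and *Srsf10*, a regulator that represses splicing when dephosphorylated, one of 0.04 (SE 0.13).

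Among the hnRNP genes, *Hnrnph3* had the smallest p, with 384, 369 and 366 normalised counts in WT and 368, 429 and 473 in Pontin cTG hearts. Pontin cTG replicate 1 lay inside the WT range. *Hnrnph3* had a log2 fold change of 0.18 (SE 0.13, adjusted p = 0.999, edgeR), which was 0.17 both without Pontin cTG replicate 2 and without both replicates 2. *Hnrnpa2b1* had 5294, 6188 and 5478 normalised counts in WT and 5511, 6257 and 6184 in Pontin cTG hearts, with a log2 fold change of 0.08 (SE 0.14). *Hnrnpa1*, its partner in exon skipping, had a log2 fold change of 0.05 (SE 0.17), and *Hnrnpab* one of -0.04 (SE 0.13). *Hnrnpu*, a scaffold protein needed for heart splicing in mice, had a log2 fold change of -0.01 (SE 0.15), and *Hnrnpk* one of -0.03 (SE 0.13). Several hnRNP genes, *Hnrnpa1* and *Hnrnpa3* among them, have processed pseudogenes, and how reads that match several places were counted is not given in the sources used here, so their levels are uncertain to that extent.

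The widest differences were between hearts of the same genotype. Replicate 2 was the highest heart of both genotypes in 19 of the 41 genes, beside 22.2% of all genes tested, and in 9 of the 10 SR protein genes. It was so in 7 of 20 hnRNP genes (35%) and in 3 of 11 regulators, *Ptbp1*, *Ptbp2* and *Ptbp3*. The SR protein gene that departed from this was *Srsf4*. Replicate 2 was the lowest heart of both genotypes in 6 of the 41 genes, beside 22.8% of all genes, and these were *Rbm20*, *Rbm24*, *Rbfox2*, *Hnrnpab*, *Hnrnpa0* and *Hnrnpul1*. Taking Pontin cTG hearts alone, replicate 2 was the highest in 20 genes (41.4% of all genes tested) and the lowest in 14 (40.5% of all genes tested). Scaled by library size alone, replicate 2 was highest in both genotypes for 9 of 10 SR protein genes, 11 of 20 hnRNP genes and 24 of the 41 genes, beside 29.7% of all genes. With the size factors of DESeq2 these counts were 9, 7 and 19, beside 22% of all. The replicate numbers are names of hearts, and no label ties WT replicate 2 to Pontin cTG replicate 2.

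**Figure D3:**
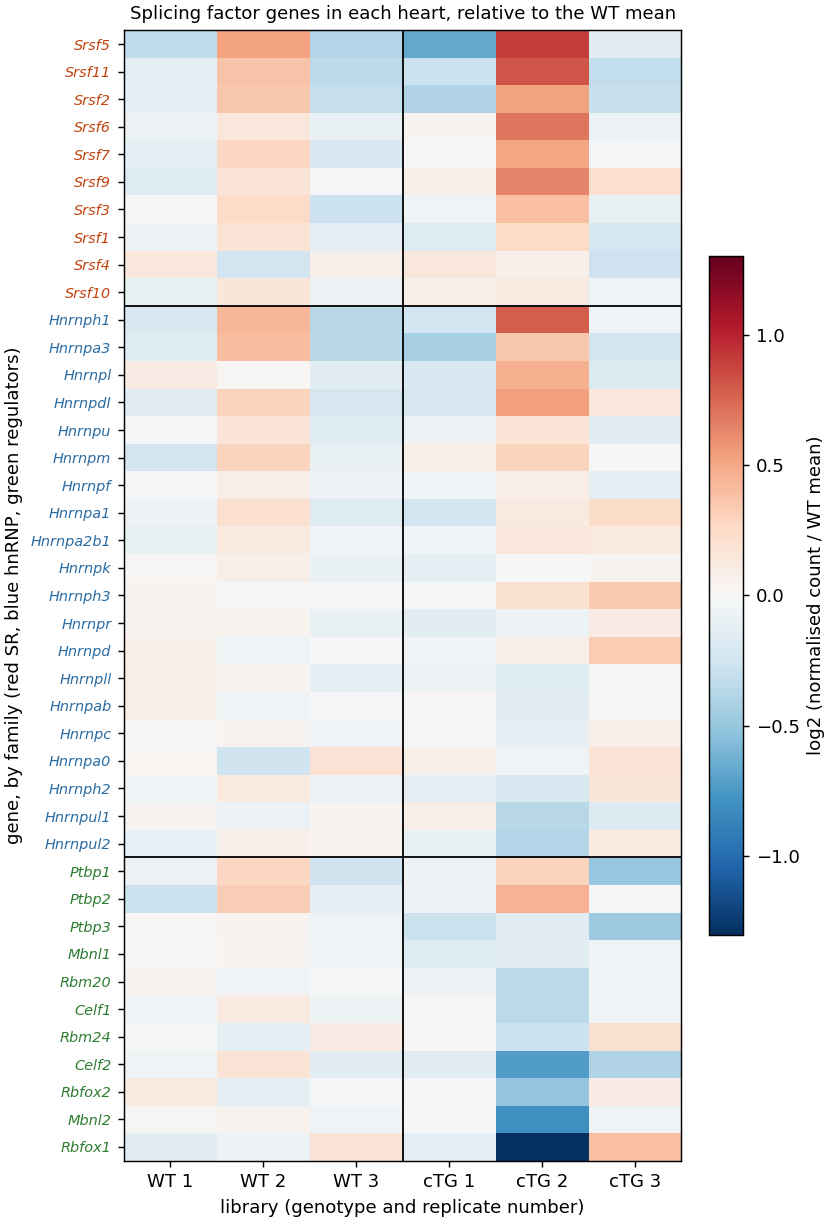
Each cell gives the log2 ratio of a heart's normalised count to the mean of the 3 WT hearts, for the 41 tested genes in rows (SR proteins, hnRNPs and regulators from top to bottom) and the 6 hearts in columns. The columns WT 2 and cTG 2 are both red for 9 of the 10 SR protein genes, and the cTG 2 column is blue for *Rbfox1*, *Mbnl2*, *Celf2* and *Rbfox2*.

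*Srsf5* (chr12:80945504-80950507, plus strand, GRCm38) had the largest ratio of Pontin cTG replicate 2 to the mean of the other 2 Pontin cTG hearts, at 2.43, and WT replicate 2 stood 1.83-fold above the other WT hearts. *Srsf5* had 1318, 2378 and 1273 normalised counts in WT and 1045, 3101 and 1506 in Pontin cTG hearts. SRSF5 is an SR protein whose gene responds quickly to insulin and serum. The log2 fold change between genotypes was 0.19 (SE 0.39, adjusted p = 0.999, edgeR), -0.38 (SE 0.34) without Pontin cTG replicate 2, 0.54 (SE 0.41) without WT replicate 2 and -0.02 (SE 0.16) without both. The biological coefficient of variation of *Srsf5* was 0.336, above the median of 0.179 over all genes tested.

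*Srsf11*, which encodes a splicing protein with an SR-like tail, had 627, 879 and 539 normalised counts in WT and 563, 1202 and 547 in Pontin cTG hearts. *Srsf2* (chr11:116849901-116853094, minus strand, GRCm38), whose loss in the mouse heart leads to dilated cardiomyopathy, had 818, 1139 and 724 normalised counts in WT and 680, 1288 and 729 in Pontin cTG hearts. In both genes the 4 hearts numbered 1 and 3 lay close together and both hearts numbered 2 lay above them. The ratio of replicate 2 to the other hearts was 2.16 in Pontin cTG and 1.51 in WT for *Srsf11*, and 1.83 and 1.48 for *Srsf2*. Between genotypes, the log2 fold change of *Srsf2* was 0.0090 (SE 0.27) with all hearts and -0.13 (SE 0.11) without both replicates 2.

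The promoters shown are those of *Srsf5*, *Srsf2* and *Srsf11*. With *Hnrnph1*, these genes had the highest biological coefficients of variation among the SR protein and hnRNP genes. Replicate 2 was the highest heart of both genotypes in each of them. The windows at the 5 listed starts of *Hnrnph1* are not printed. Each of those holds a GC box and none an ETS site. Each window runs around the RefSeq start on GRCm38.p6 and is read 5′ to 3′ on the strand of the gene, and capitals mark matches on either strand to the motifs named after them. They are *Srsf5* at chr12:80945249-80945548 (plus strand), *Srsf2* at chr11:116853045-116853344 (minus strand) and the upstream one of 2 listed starts of *Srsf11* at chr3:158036557-158036856 (minus strand).
Srsf5: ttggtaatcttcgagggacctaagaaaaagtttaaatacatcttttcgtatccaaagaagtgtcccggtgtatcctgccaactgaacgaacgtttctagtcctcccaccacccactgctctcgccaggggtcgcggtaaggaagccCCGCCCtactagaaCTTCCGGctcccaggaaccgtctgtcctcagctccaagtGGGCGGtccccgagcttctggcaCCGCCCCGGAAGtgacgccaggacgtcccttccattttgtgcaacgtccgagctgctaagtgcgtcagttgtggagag
Srsf2: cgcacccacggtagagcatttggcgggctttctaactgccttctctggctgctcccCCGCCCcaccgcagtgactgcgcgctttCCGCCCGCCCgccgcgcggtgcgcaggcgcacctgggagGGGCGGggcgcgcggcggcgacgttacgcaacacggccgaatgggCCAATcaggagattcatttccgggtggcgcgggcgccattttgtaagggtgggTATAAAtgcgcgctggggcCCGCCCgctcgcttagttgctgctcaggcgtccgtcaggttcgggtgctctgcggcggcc
Srsf11: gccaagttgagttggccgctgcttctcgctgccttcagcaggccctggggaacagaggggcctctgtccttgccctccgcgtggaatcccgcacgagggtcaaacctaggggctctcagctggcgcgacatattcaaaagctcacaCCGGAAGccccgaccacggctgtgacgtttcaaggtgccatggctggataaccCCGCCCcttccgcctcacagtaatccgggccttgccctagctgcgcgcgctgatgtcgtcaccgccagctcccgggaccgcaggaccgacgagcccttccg

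The *Srsf5* window holds 3 GC boxes (GGGCGG, the letters bound by SP1) and 2 ETS sites (CCGGAAG), of which 1 GC box and 1 ETS site share a base. *Srsf2* holds 5 GC boxes, a pair of them overlapping, a CCAAT box (CCAAT) and a TATA box (TATAAA). *Srsf11* holds 1 GC box and 1 ETS site in this window. Of the 41 tested genes, 36 had a promoter in the RefSeq table, with 54 windows in all. Windows of the same gene can overlap, as some of *Hnrnph1* do, so a site can be counted in more than 1 window. A GC box was found in 74.1% of these windows and in 35.7% of all 32851 windows of the same length, and an ETS site in 18.5% and 8.86%. The CCAAT box was found in 44.4% of the windows of the splicing factor genes and 37.4% of all, the TATA box in 11.1% and 13.6%, and the E-box CACGTG in 13.0% and 7.15%. The remaining motifs searched were the heat shock element core GAANNTTC (13.0% and 7.86%), the YY1 site AAGATGGC (5.56% and 2.75%) and the cAMP response element core TGACGTCA (0% and 1.79%). The 32851 windows include genes not tested here, and no share over the tested genes alone was taken. Whether the windows of the splicing factor genes differ from those of other tested genes was thus not tested. All are matches of letters and not sites shown to be bound.

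*Hnrnph1*, whose product binds G-runs, stood out in the same hearts among the hnRNPs, with 1424, 2223 and 1282 normalised counts in WT and 1386, 2837 and 1583 in Pontin cTG hearts. *Hnrnpa3* had ratios of 1.61 in Pontin cTG and 1.58 in WT for replicate 2 over the other hearts. *Hnrnpl*, whose product binds CA repeats, was high in Pontin cTG replicate 2 alone, with 1850, 1730 and 1563 normalised counts in WT and 1498, 2368 and 1502 in Pontin cTG hearts. Its log2 fold change was 0.06 (SE 0.20) with all hearts and -0.18 (SE 0.11) without both replicates 2. Summed over the 10 SR protein genes, normalised counts were 8010, 10617 and 7476 in WT and 7654, 12895 and 7878 in Pontin cTG hearts. The sum over the 11 regulators was 16734, 16820 and 16400 in WT and 15949, 12713 and 16381 in Pontin cTG hearts. Thus both hearts numbered 2 were high in the SR sum, and Pontin cTG replicate 2 alone was low in the regulator sum. *Srsf11*, *Hnrnph1* and *Hnrnpa3* were chosen for mention after their values were seen.

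**Figure D4:**
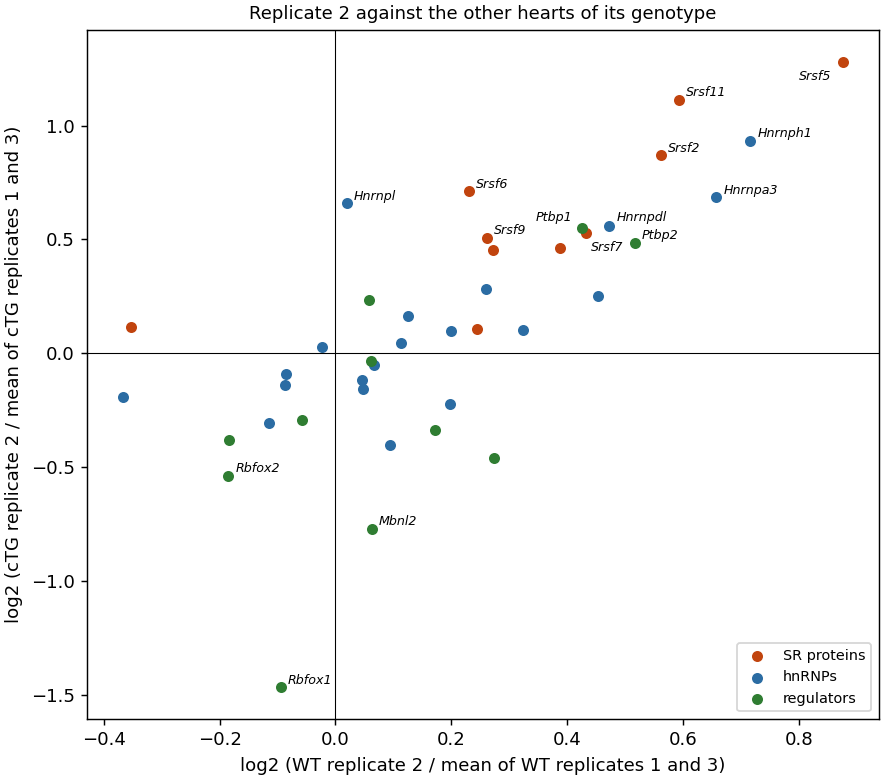
Each point is a tested gene, placed by the log2 ratio of replicate 2 to the mean of replicates 1 and 3 in WT hearts (x axis) and in Pontin cTG hearts (y axis), coloured by family. *Srsf5*, *Srsf11*, *Hnrnph1* and *Srsf2* lie at the upper right, high in both hearts numbered 2, and *Rbfox1* lies at the bottom, low in Pontin cTG replicate 2 and close to 0 on the WT axis.

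Some other values moved with these hearts and some did not. The summed fibroblast markers were 18622, 28403 and 16024 normalised counts in WT and 18749, 28497 and 14952 in Pontin cTG hearts, with all 7 markers present, so the hearts numbered 2 were highest in both genotypes. The summed leukocyte markers, all 8 of them present, were also highest there, from 3870 to 6705 in WT and from 3414 to 4926 in Pontin cTG hearts. The 6 endothelial markers summed to between 11451 and 15888 in the 6 libraries, again highest in replicate 2 of each genotype. The 6 smooth muscle and pericyte markers ran from 13790 to 15715 in WT, where replicate 2 was lowest, and from 13434 to 13924 in Pontin cTG hearts. Summed erythroid markers were 13186, 15258 and 22338 in WT and 21216, 19437 and 11695 in Pontin cTG hearts. The cardiomyocyte sum was highest in WT replicate 2 (949469) and lowest in Pontin cTG replicate 2 (849237). The 5 adipocyte markers did not exceed 14.6. Long noncoding RNA took 0.931% of the nuclear counts of Pontin cTG replicate 2, and 0.673% to 0.767% in the other libraries, and 21639 genes had at least 1 count there beside 19554 to 20400. The part of these differences in the levels of the splicing factor genes was not tested.

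Gene structure differed between the families in a way the names did not use. In GENCODE M21 on GRCm38, the tested SR protein genes were short, with a median span of 6.81 kb, the hnRNP genes had one of 13.0 kb and the regulators one of 156 kb, beside 22.5 kb over all tested genes in that annotation. *Rbfox1* spans 1526 kb and *Celf2* 970 kb. Exons of any annotated transcript covered a median of 61.5% of the span in SR protein genes, 48.0% in hnRNP genes and 9.65% in regulators. Over the 41 genes, Spearman's rho between span and the log2 ratio of Pontin cTG replicate 2 to the other Pontin cTG hearts was -0.53, and over 13739 tested genes it was -0.21. The corresponding rho for WT replicate 2 was -0.35 over the 41 genes and 0.01 over all. The genes share the libraries from which these ratios were taken and are not replicates.

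A transcript class that ends in nonsense-mediated decay was annotated in 9 of the 10 SR protein genes (90%), in 10 of 20 hnRNP genes and in 5 of 11 regulators, beside 25.8% of the 13739 tested genes in that annotation. The SR protein genes held 85 annotated transcripts, the hnRNP genes 195 and the regulators 150, beside 77514 over those 13739 genes. A gene with more annotated transcripts can more easily hold one of a given class, and these shares were not adjusted for that. A retained-intron transcript was annotated in 8 of the 10 SR protein genes, 14 of 20 hnRNP genes and 8 of 11 regulators, beside 53.8% of the same 13739 genes. Introns kept in such transcripts were part of the gene length of the table, so reads from them could enter the gene counts. *Srsf11* alone had 11 retained-intron transcripts among 19. Which of these transcripts the counts came from cannot be read from the table.

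The partners of these proteins were described from lists of general splicing knowledge. None of their genes was called at an adjusted p under 0.05. Of the 10 genes for kinases of SR proteins and their phosphatase partners, 7 had a log2 fold change above 0, with a median of 0.09, and 0 had an unadjusted p under 0.05. Without both replicates 2, 2 of the 10 were above 0 and the median was -0.07. Replicate 2 was the highest heart of both genotypes in 6 of them. *Clk1*, a nuclear kinase of SR proteins, had 455, 1077 and 424 normalised counts in WT and 353, 1732 and 407 in Pontin cTG hearts. *Clk4*, its close relative, had 273, 570 and 264 in WT and 228, 822 and 277 in Pontin cTG hearts. In both genes replicate 2 was thus the highest heart of each genotype, as it was for *Srsf5*. *Clk1* and *Clk4* are named after their values were seen.

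By the rule for naming genes, *Clk2* (log2 fold change 0.21, SE 0.19) and the muscle kinase gene *Srpk3* (0.14, SE 0.13) had the smallest p among those above 0, and *Srpk2* (-0.30, SE 0.14) and *Dyrk1a* (-0.13, SE 0.19) among those below. Leaving out Pontin cTG replicate 2 gave *Clk2* a log2 fold change of 0.0036, *Srpk3* one of 0.03 and *Dyrk1a* one of 0.05. *Srpk2* encodes a cytoplasmic kinase that readies SR proteins for nuclear import. Normalised counts of *Srpk2* were 940, 833 and 942 in WT and 672, 700 and 842 in Pontin cTG hearts, with unadjusted p = 0.0589 and adjusted p = 0.999 (edgeR). The groups of *Srpk2* overlapped only in WT replicate 2 and Pontin cTG replicate 3.

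Of the 17 SR-related splicing protein genes, 12 had a log2 fold change above 0, with a median of 0.06, and 7 did without both replicates 2. Replicate 2 was the highest heart of both genotypes in 12 of them (70.6%). *Acin1* (0.18, SE 0.17) and *U2af1* (0.20, SE 0.19), the small subunit of the factor that binds the 3′ splice site, had the smallest p among log2 fold changes above 0. *Tra2b*, an SR-like activator whose product binds GAA repeats, had 562, 676 and 506 normalised counts in WT and 495, 575 and 464 in Pontin cTG hearts, with a log2 fold change of -0.19 (SE 0.15). *Scaf8* had one of -0.16 (SE 0.17). Without Pontin cTG replicate 2 these log2 fold changes were -0.02 for *Acin1*, 0.01 for *U2af1*, -0.28 for *Tra2b* and -0.01 for *Scaf8*.

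Of the 63 core spliceosome genes, 40 had a log2 fold change above 0, with a median of 0.07. Without Pontin cTG replicate 2 this was 32 of 63 with a median of 0.00084, and without both replicates 2 the median was 0.02. With all hearts, 3 had an unadjusted p under 0.05 in that direction (1.02% of all genes) and 1 in the other (1.03%). In 8 every Pontin cTG heart lay above every WT heart (4.7% of all genes), and in 1 below (3.63%). *Snrpf*, of the Sm ring of the snRNPs, had 83.7, 97.6 and 86.1 normalised counts in WT and 112, 143 and 116 in Pontin cTG hearts, with a log2 fold change of 0.47 (SE 0.18, unadjusted p = 0.0296, adjusted p = 0.999, edgeR). *Snrpe*, of the same ring, had 140, 113 and 66.0 in WT and 160, 149 and 175 in Pontin cTG hearts, and a log2 fold change of 0.60 (SE 0.25). The third was *Lsm2*, of the ring around U6 snRNA and named after its value was seen, with a log2 fold change of 0.46 (SE 0.20). In each of the 3 the groups did not overlap. *Aqr*, an intron-binding helicase, had 454, 545 and 453 normalised counts in WT and 399, 375 and 385 in Pontin cTG hearts, with a log2 fold change of -0.32 (SE 0.13, unadjusted p = 0.0314). *Prpf8*, the core of the catalytic centre, had a log2 fold change of -0.34 (SE 0.17) with overlapping groups.

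Of the 42 other splicing regulators listed, 38 were tested, 26 of them with a log2 fold change above 0, with a median of 0.06 and 0 with an unadjusted p under 0.05. The direction turned without Pontin cTG replicate 2, where 16 were above 0 and the median was -0.03, and without both replicates 2 it was 22 of 38 with a median of 0.01. *Pcbp2* (0.12, SE 0.13), *Fxr2* (0.12, SE 0.15), *Pspc1* (-0.15, SE 0.14) and *Elavl1* (-0.11, SE 0.12) had the smallest p in each direction.

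The levels of 13 transcripts known to be spliced under Rbm20 were read as well, although the counts do not show their isoforms. With all hearts their median log2 fold change was -0.14, with 0 above 0 and 13 below, and 0 had an unadjusted p under 0.05. Without both replicates 2 the median was -0.02, with 4 above 0 and 9 below. Pontin cTG replicate 2 was the lowest Pontin cTG heart in 10 of them, beside 40.5% of all genes tested. *Lmo7* had 5799, 5959 and 5806 normalised counts in WT and 5448, 3975 and 5384 in Pontin cTG hearts, so its groups did not overlap, and its log2 fold change was -0.25 (SE 0.16, adjusted p = 0.999, edgeR). *Camk2d*, the gene of a calcium-dependent kinase of the heart, had one of -0.21 (SE 0.15). Without Pontin cTG replicate 2 they were -0.11 for *Lmo7* and -0.10 for *Camk2d*. *Ryr2*, the cardiac calcium release channel, had 20299, 22343 and 23235 normalised counts in WT and 24380, 10842 and 16789 in Pontin cTG hearts. *Ttn*, the gene of titin, had 36947, 52005 and 37071 in WT and 41215, 47588 and 20004 in Pontin cTG hearts. The lowest Pontin cTG heart was thus replicate 2 for *Ryr2* and replicate 3 for *Ttn*, and both genes are named after their values were seen.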

How the data were processed

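RNA-seq libraries from 3 Pontin cTG and 3 WT hearts were analysed. The values are the whole-number counts per gene that the authors deposited, with no normalisation. The published methods name Trimmomatic, STAR, mm10 and the Gencode M25 annotation, whereas the submitters' processing notes name fastp, HISAT2, featureCounts and GRCm39, and which of these made the table was not settled. Whether counting used strand is not given in the sources used here, so reads of overlapping or antisense genes cannot be told apart. The gene length in the table equals the union of GENCODE M21 exons for 94.9% of tested genes, retained-intron transcripts included. Each sample column was matched by its name in the labels (0 columns left unmatched).

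From the deposited counts, the genes that filterByExpr kept at a minimum count of 10 were scaled by TMM. The genotypes were compared in R 4.3.3 by the quasi-likelihood test of edgeR 4.0.16, fitted robustly and without covariates. p-values were adjusted by Benjamini and Hochberg's method over 13888 genes. The standard error is the size of the log2 fold change divided by the square root of F. Ratios of replicate 2 to the other hearts used a pseudocount of 1. Scripts were tested on simulated data with 200 changed genes. Positions are GRCm38 (GENCODE M21, matched by identifier for all 47 genes) and promoters are from RefSeq.

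The genes and lists were chosen with earlier results of these data known. The genes named are 20 known from heart or muscle splicing or as prototypes, the 3 with the smallest p in each direction, the 3 with the highest per-kilobase level in each family, those below the filter, the 2 with the smallest p in each direction from each list, and *Ruvbl1*. Genes outside this rule, such as *Srsf11*, *Hnrnph1*, *Clk1* or *Ryr2*, were chosen after their values were seen. Of the list of transcripts known to be spliced under Rbm20, a single gene is not reported here and was left out of its counts and median.

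Libraries with the same number deviated from the means of their genotypes with correlations of 0.0995, 0.44 and 0.206, no source ties the numbers to a litter or batch, and the libraries were treated as unpaired. Counts of every pair of libraries differed by more than the sampling noise (chi-square per gene at least 5.62), so none was treated as a repeat. With 3 hearts per group an exact permutation test cannot give a p below 0.1. Alternatives were DESeq2 1.42.0, scaling in edgeR by its size factors or by library size alone, other filters (none, or 10 counts in each library), restriction to protein-coding genes or to genes outside the mitochondrial genome, a replicate block, limma-voom (limma 3.58.1) with sample quality weights and the omission of each library in turn. Leaving out both replicates 2 was added after the data were seen.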

Additional observations from a re-analysis of the deposited data

How the results depend on the processing

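No splicing factor gene was called at an adjusted p under 0.05 with any alternative, and the adjusted p of *Celf2* and *Ptbp3* ran from 0.855 to 0.9998 over them. Over all genes, 1 gene was called by DESeq2, 3 with no filter on low counts, 3 by limma-voom with sample quality weights, 0 to 3 when a library was left out (3 without Pontin cTG replicate 2) and 6 without both replicates 2, against 0 in the reported fit. The 2 splicing factor genes with an unadjusted p under 0.05 became 1 with DESeq2, library size alone, limma-voom, no filter, a filter of 10 counts in every library, only protein-coding genes and without both replicates 2, and 0 to 1 when a library was left out. Their number is lower with any library left out: 0 without any WT library or Pontin cTG replicate 3, and 1 in the other fits. The 2 genes whose groups do not overlap became 4 with at least 10 counts in every library (all genes 4.98% higher and 3.71% lower), 4 to 9 when a library was left out (all genes 7.21% to 10.98% higher and 5.94% to 10.5% lower; 9 without WT replicate 2, all genes 8.40% and 8.02%) and 13 without both replicates 2, where 16.4% of all genes did not overlap in each direction. Fewer hearts make overlap less likely. Family medians moved by less than 1 SD of the medians of single libraries (0.289 for SR proteins). That SD includes the libraries numbered 2, so a move within it does not show a stable median. The SR median changed sign without Pontin cTG replicate 2 (-0.06, 2 of 10 genes above 0). It did so too with limma-voom and sample quality weights (-0.03, 5 of 10 above 0).

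With the replicate number as a block, 0 genes were called and 2 splicing factor genes had an unadjusted p under 0.05, as without it, while 499 of all genes did against 285. The SR median was 0.10 with the block, and the log2 fold change of *Srsf2* turned to -0.0248. The correlations do not show that the numbers pair the hearts.

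Of single genes, the log2 fold change changed sign with DESeq2 for *Srsf2* (-0.000304), with no filter on low counts for *Srsf2* (-0.00742), with library size alone for *Rbm24* (0.00607), *Srsf1* (0.0126), *Hnrnpu* (0.0307) and *Hnrnpk* (0.00428), with at least 10 counts in every library for *Hnrnpu* (0.00429), with limma-voom and sample quality weights for *Rbm24* (0.0194), *Rbfox1* (0.0136), *Celf1* (0.00458), *Srsf2* (-0.18), *Srsf5* (-0.14), *Hnrnpa1* (-0.00723), *Hnrnpl* (-0.18), *Srsf11* (-0.0887), *Clk1* (-0.25) and *Clk4* (-0.14) and without both replicates 2 for *Rbm24* (0.0431), *Rbfox1* (0.13), *Celf1* (0.0450), *Srsf2* (-0.13), *Srsf5* (-0.0198), *Hnrnpl* (-0.18), *Srsf11* (-0.0688), *Clk2* (-0.0350), *Clk1* (-0.20) and *Clk4* (-0.0826). Over the fits that left out 1 library, it changed sign within these lowest and highest values: *Rbm24* -0.14 to 0.10, *Rbfox1* -0.59 to 0.16, *Rbfox2* -0.24 to 0.0415, *Ptbp1* -0.27 to 0.12, *Ptbp2* -0.0399 to 0.33, *Srsf1* -0.19 to 0.0684, *Srsf2* -0.34 to 0.22, *Srsf3* -0.0709 to 0.24, *Srsf5* -0.38 to 0.54, *Hnrnpa1* -0.0555 to 0.19, *Hnrnpu* -0.10 to 0.0859, *Hnrnpl* -0.19 to 0.19, *Hnrnpk* -0.0609 to 0.0290, *Srsf6* -0.0200 to 0.40, *Hnrnpab* -0.0678 to 0.00708, *Srsf7* -0.0113 to 0.34, *Srsf11* -0.30 to 0.40, *Hnrnph1* -0.15 to 0.52, *Hnrnpdl* -0.0282 to 0.36, *Hnrnpa3* -0.33 to 0.19, *Dyrk1a* -0.26 to 0.0463, *Acin1* -0.0162 to 0.30, *Clk1* -0.78 to 0.92, *Clk4* -0.54 to 0.72 and *Ttn* -0.46 to 0.0803. The cause was not tested. With 3 hearts per group, the standard errors of the 41 splicing factor genes ran from 0.12 to 0.39 on the log2 scale.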
